A study of Mus musculus with 360 samples.

Results

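The comparison was between 2 plates of single cells from the same tissue, the sagittal (SAG) suture complex of wild-type CD-1 mice at postnatal day 3. A cell was included when at least 500 genes had a read and at least 10000 reads were counted, which all 30 cells of SAG plate 1 and 56 of the 64 cells of SAG plate 2 did, together 86 of the 325 cells that passed in the whole series of 360. Nothing in the labels sets the plates apart but the plate number: strain, genotype, age, tissue and cell type are given alike, and both were sorted as CD51+;CD200+ cells negative for CD105, 6C3, both Thy1 forms, Tie2, Ter119 and CD45. The 6 other plates, a pair each from the posterior frontal (PF) suture, the coronal (COR) suture and the tibial growth plate (GP), served as background. No animal, litter or culture is named for any cell, and the methods tie no mice to a plate, so each plate was treated as 1 sample. No test between plates was therefore possible, and a difference of library preparation, of sequencing run or of animals cannot be told apart from a difference of plates.

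Cranial sutures are fibrous joints between the growing skull bones, and the sagittal suture lies between the parietal bones. The sorted cells are skeletal stem and progenitor cells, which can give rise to cartilage, bone and stroma. The libraries were made by the Picelli (Smart-seq2) method, in which reverse transcription starts from an oligo-dT primer at the poly(A) tail and a template switch oligo is copied onto the far end of the cDNA, so that reads come from along whole transcripts. Rn45s is the precursor of the ribosomal RNAs. It is not expected to carry a long poly(A) tail, and its reads were left out of all totals below, so that CPM means counts per 1000000 reads of genes other than Rn45s.

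Plate 2 was sequenced more deeply, and most of the added reads were Rn45s. A cell of plate 1 had 26824 reads at the lowest, 241744 at the median and 711861 at the highest, and a cell of plate 2 had 844217, 1402680 and 1907976. With Rn45s set aside the medians were close, 188426 reads on plate 1 and 184232 on plate 2. Rn45s took between 12.9% and 62.9% of a cell's reads on plate 1 and between 79.97% and 92.7% on plate 2, so that the cells of the plates did not overlap in this share. Medians on the 6 other plates lay between 18.3% and 29.2%, although single cells of the PF and GP plates also passed 90%.

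To compare the plates at equal depth, every cell was thinned at random to 100000 reads other than Rn45s, which 25 cells of plate 1 and 55 cells of plate 2 could supply. At that depth a cell of plate 1 had a read for 861 genes at the lowest, 2874 at the median and 3853 at the highest, and a cell of plate 2 for 501, 832 and 1280. Only the poorest cell of plate 1 fell within the range of plate 2. Adding reads did not close the gap: the plate 2 median was 736.5 genes at 20000 reads per cell and 874 with all reads used, against 2369 and 2890.5 on plate 1. The reads of plate 2 lay on fewer genes, with a median of 61 reads for each gene read in a cell, compared with 18 on plate 1 and 11 to 18.5 on the other plates.

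**Figure D1:**
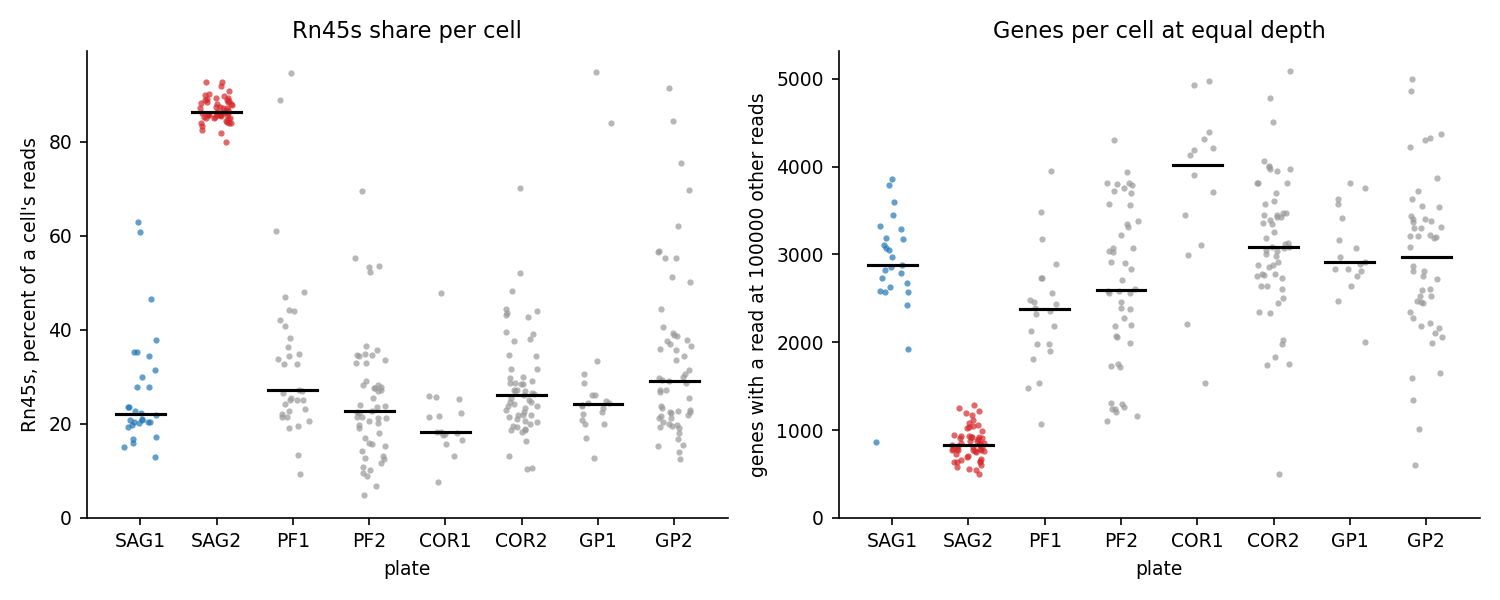
Each point is 1 cell, grouped by plate on the horizontal axis, and black lines are plate medians. Left, Rn45s as a percent of a cell's reads, where the SAG plate 2 cells lie from 79.97% to 92.7%. Right, genes with a read after thinning to 100000 other reads, where the SAG plate 2 median is 832 and the medians of the 6 plates from other tissues are 2373 to 4016.

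Plate 2 had fewer broadly read genes. On plate 1, 274 genes had a read in at least 90% of cells and 1710 in at least 50%, while on plate 2 these numbers were 20 and 221. Over all cells of a plate 10966 genes had a read on plate 1 and 8559 on plate 2, and the 10 leading genes took 12.5% and 13.6% of reads. The difference was thus in how many genes each cell gave reads for, while the leading genes took similar parts of the pooled reads.

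For the comparison by level, reads were summed over the thinned cells of a plate, and 3977 genes with at least 50 CPM and a read in at least 20% of cells on 1 of the plates were compared. A gene was called lost when its level was at least 4-fold lower on plate 2, gained when at least 4-fold higher and kept when within 2-fold, on the scale of log2(CPM + 1). By these rules 1836 genes were lost (46.2%), 569 were gained (14.3%) and 804 were kept (20.2%), with the other 768 between these limits. The median log2 ratio over all 3977 genes was -1.63. Of the lost and gained genes together 76.3% were lost. Counting Rn45s in the totals, with all reads of the 30 and 56 passing cells and no thinning, moved the median to -4.28 over 2877 genes. There 2256 genes were lost, 268 kept and 45 gained, so that 98.04% of the changed genes were lost. That alternative changed the depth, the cells and the weight of each cell as well as the totals. Unless Rn45s is said to be counted, every level below is relative to the reads of other genes. With a floor of 200 CPM in place of 50, 1359 genes were compared, 490 were lost, the lost share was 51.9% and the median log2 ratio was 0.36. Between the plates of PF, COR and GP the same rules called 1.53%, 0.977% and 2.65% of genes lost, 7.24%, 2.98% and 3.19% gained, and 67.6%, 78.3% and 74.6% kept. These calls describe these libraries, with no check by replicates.

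Lost genes had reads in few cells of plate 2. Since the filter could be passed on plate 1 alone, their shares of cells are partly set by the filter and the call. Their median share of cells with a read was 52% on plate 1 and 1.82% on plate 2, 602 of the 1836 had no read on plate 2 at all, and together they held 46.4% of the reads of plate 1 but 3.37% of those of plate 2. For gained genes the median share of cells was close, 28% on plate 1 and 30.9% on plate 2, although some were read in many more cells on plate 2, and their part of all reads was 4.69% on plate 1 and 40.99% on plate 2. The plate 2 level was below that of all 7 other plates for 1690 lost genes (92.0%, against 51.1% of all genes compared) and above all 7 for 561 gained genes (98.6%, against 26.6%). Plate 1 is among the 7, and the calls picked genes by low or high plate 2 levels. These ranks are therefore largely set by the calls and are no separate support for them. Leaving out the cell with the most reads of each gene left 1688 lost and 483 gained genes past 4-fold.

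The direction was more one-sided still by the share of cells. Of 1768 genes read in at least 50% of the cells of a plate, 1004 (56.8%) were read in at least 50% of cells on plate 1 and at most 10% on plate 2, and 2 genes (0.113%) went the other way. These 2 were the predicted gene Gm20594, read in 8% of plate 1 cells and 87.3% of plate 2 cells, and Scaf1, which encodes a splicing-associated factor, read in 8% and 58.2%. Between the plates of PF, COR and GP 0%, 0.155% and 0.0451% of genes were lost by this rule and 0.12%, 0% and 0.0902% gained.

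**Figure D2:**
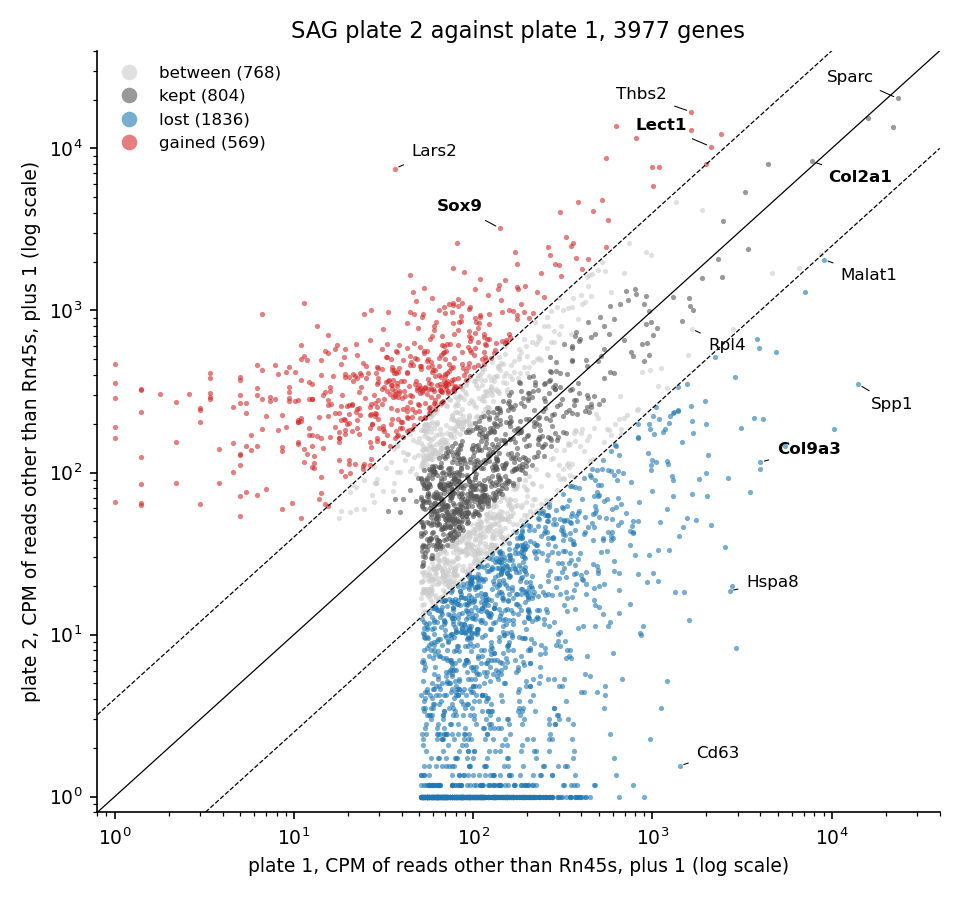
Level of 3977 genes on SAG plate 1 (horizontal axis) and SAG plate 2 (vertical axis), both in CPM of reads other than Rn45s plus 1 on log scales. The solid line marks equal levels and the dashed lines 4-fold differences; 1836 lost genes (blue) lie below them, 569 gained genes (red) above, and the 4 cartilage marker genes are named in bold.

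The 4 cartilage marker genes separated in 3 ways. Sox9, Col2a1, Lect1 and Col9a3 belong to the cartilage programme: Sox9 encodes the transcription factor that switches on cartilage matrix genes, Col2a1 the main cartilage collagen, Col9a3 a chain of the type IX collagen that decorates type II fibrils, and Lect1 the cartilage glycoprotein chondromodulin. All but Col2a1 differed more than 4-fold between the plates, in opposite directions, although on plate 1 they were read in similar shares of cells, 56% to 88%.

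Sox9 (mm9 chr11:112643538-112649074) had 139 CPM on plate 1 (95% Poisson interval 125 to 155) and 3225 CPM on plate 2 (3177 to 3273), a 23.2-fold higher level. Per cell it ran from 0 to 1120 CPM on plate 1 with a median of 30, and from 0 to 21210 CPM on plate 2 with a median of 1110. The ranges overlap at the low end, since 56% of plate 1 cells and 78.2% of plate 2 cells had a read, but the plate 2 median lay just under the highest plate 1 cell. On the 6 plates of other tissues Sox9 had 12.6 to 52.7 CPM. Poisson intervals of levels and the exact binomial (Clopper-Pearson) intervals of shares cover counting error only, and reads without molecular identifiers are not independent molecules, so that these intervals are too narrow for a difference between plates.

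Lect1 (chr14:80037497-80061977) had 2108 CPM on plate 1 and 10251 CPM on plate 2, 4.86-fold higher, with reads in nearly the same share of cells, 72% and 72.7%. Its median cell had 1060 CPM on plate 1 and 5920 on plate 2. The cells with a read therefore held more reads each on plate 2. When Rn45s was counted in the totals and cells were not thinned, the Lect1 difference turned to a log2 ratio of -0.55, while that of Sox9 stayed positive at 2.28.

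Col2a1 (chr15:97806033-97835155) was kept, at 7737 CPM on plate 1 and 8315 CPM on plate 2, a log2 ratio of 0.10. It was read in 72% and 58.2% of cells, and 1 cell gave 35.5% of its reads on plate 1 and 1 gave 31.9% on plate 2. Col9a3 (chr2:180332495-180356894) was lost. It had 3992 CPM on plate 1 (3914 to 4071) and 115 CPM on plate 2 (106 to 124), 34.7-fold lower, and was read in 88% of plate 1 cells (exact binomial interval 68.8% to 97.5%) and 10.9% of plate 2 cells (4.11% to 22.2%). The median cell went from 920 CPM to 0, and a single cell held 50.3% of the plate 2 reads.

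The remaining cartilage genes were also divided, with shares lost near the 46.2% over all genes compared. Of 6 cartilage collagen genes compared, 3 were lost and 3 kept: the type IX chains Col9a1 (2051 CPM on plate 1, 128 on plate 2) and Col9a2 (1088 and 212) were lost with Col9a3, while Col11a1 (1008 and 704) and Col11a2 (264 and 310), which encode chains of the type XI collagen inside the same fibrils, were kept with Col2a1. Among 10 other cartilage matrix genes 6 were lost, 3 gained and none kept. Acan, the large proteoglycan of cartilage, was gained at 204 and 902 CPM, as were Lect1 and Chad, which encodes a leucine-rich matrix protein (227 and 1296). Comp (625 and 60), Matn1 (1640 and 256), Matn3 (373 and 19.5) and Matn4 (1251 and 221), which encode oligomeric matrix adaptors, were lost, though Matn1 was not past 4-fold without its top cell (log2 ratio -1.79), and Mia had 164 CPM on plate 1 and no read on plate 2.

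Among 6 cartilage regulators 1 was lost and 2 gained, Sox9 and the growth factor receptor gene Fgfr3 (150 and 1535 CPM). The partners of Sox9 lay between the limits, Sox5 at 117 and 50.4 CPM and Sox6 at 56.8 and 130. Summed CPM gave a log2 ratio of -0.72 for the cartilage collagens, 1.02 for the other cartilage matrix genes and 2.86 for the regulators. With Rn45s counted in the totals of unthinned cells, that of the other cartilage matrix genes became -1.70. A list's sum and its genes can differ: the median of the other cartilage matrix genes was -2.59, below the -1.63 of all genes compared, although their sum was higher on plate 2 through Lect1. The median of the regulators was -0.01, and their summed level on plate 2 was mostly that of Sox9 and Fgfr3.

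Osteoblast genes were few and divided, beside the 46.2% lost and 20.2% kept over all genes. Of 5 osteoblast matrix genes compared 3 were kept, Col1a1 (21885 and 13590 CPM) and Col1a2 (16000 and 15320), which encode the chains of bone collagen, and Sparc (23278 and 20348), a collagen-binding protein of bone. Sparc was among the steadiest genes of the comparison, read in 96% of plate 1 cells and 98.2% of plate 2 cells, with median cells at 12930 and 12600 CPM. Spp1, which encodes osteopontin, was the list's lost gene at 14032 and 350 CPM, but 93.4% of its plate 1 reads came from 1 cell, and without that cell its log2 ratio was -1.45 in place of -5.32. Of 5 osteoblast factors 3 were lost, among them Sp7 (125 and 2.36 CPM), the factor that commits cells to bone, Dlx5 (93.6 and 21.6), and Atf4 (150 CPM and no read), while Runx2, the upstream regulator, lay between the limits at 102 and 364 CPM. Without its top plate 1 cell Sp7 had a log2 ratio of -4.49 in place of -5.23. Summed levels gave log2 ratios of -0.13 for the factors and -0.64 for the matrix genes.

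Genes of fibrous matrix, of the suture mesenchyme and of cranial position were divided as well, beside 46.2% lost, 20.2% kept and 14.3% gained over all genes. Of 14 fibroblast matrix genes 3 were lost, 4 kept and 2 gained, the gained ones near the share over all genes. Their median log2 ratio was 0.28. Fn1, which encodes fibronectin, was kept at 4397 and 8031 CPM, and the microfibril gene Fbn1 was gained at 101 and 1351, while the small proteoglycan genes Lum (3498 and 74.7) and Dcn (668 and 62.6) were lost. Of 5 suture stem cell genes compared 2 were gained, Prrx1 (214 and 960 CPM) and Six2 (33.2 and 145), both mesenchymal transcription factors, and Ctsk was lost (528 and 38.5). The cranial factors Zic1 (9.60 and 209 CPM) and Zic4 (43.2 and 522) were gained, and Alx1 had 69.2 CPM on plate 1 and no read on plate 2, with a log2 ratio of -6.13 that was -5.43 without its top cell. All 16 hindlimb position genes had no read on either plate. With Rn45s in the totals of unthinned cells the summed log2 ratio of the suture stem cell genes turned from 0.69 to -1.65 and that of the fibroblast matrix genes from 0.32 to -2.25, while that of the cranial genes stayed positive at 0.27.

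The antigens of the sort were measured with less certainty on plate 2. Itgav, which encodes CD51, was read in 36% of plate 1 cells and 5.45% of plate 2 cells, with summed levels of 84.8 and 62.9 CPM. Cd200 was read in 64% and 16.4% of cells at 317 and 59.3 CPM. Of the genes of the excluded antigens, Ptprc (CD45), Tek (Tie2) and Thy1 had no read on either plate, which by a floor of 3 counts allows reads in up to 12% of plate 1 cells and 5.45% of plate 2 cells. This limits cells with a read and not cells that express the gene, since Psmb6, read in every cell of plate 1, had no read on plate 2 either. Enpep (6C3) was read in 20% and 1.82% of cells and Eng (CD105) in 8% and 3.64%. Most marker lists of other cell types were low on both plates. Haematopoietic markers summed to 8.40 CPM on plate 1, with reads in 24% of cells, and had no read on plate 2, and endothelial markers summed to 5.20 and 42.4 CPM, with reads in no more than 1 cell of each plate. Sums for neutrophil markers were 0 and 6.91 CPM, for erythroid markers 0 and 14.4, for skeletal muscle 7.20 and 0, for epidermis 16.8 and 8.36, and for neural or glial markers 83.6 and 21.5, with reads in 40% and 3.64% of cells. Pericyte or smooth muscle markers summed to 64 and 243 CPM, mostly Cspg4, with reads in 36% and 18.2% of cells. The osteoclast list was the exception: the sum of its 8 markers was 9242 and 2260 CPM, with reads in 92% and 40% of cells, and was mostly Mmp9, a matrix metalloproteinase gene that hypertrophic cartilage also uses.

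Several classes of genes needed by every cell were mostly lost, beside 46.2% lost and 14.3% gained over all genes compared. Of 72 cytoplasmic ribosomal protein genes compared 70 were lost, 1 kept and none gained, with a median log2 ratio of -6.56, and 31 of them had no read on plate 2. Summed over all 82 in the tables they ran from 12230 to 43810 CPM in the cells of plate 1, with a median of 16920, and from 10 to 6430 CPM in those of plate 2, with a median of 1220. No cell of plate 2 reached the lowest cell of plate 1. Of 67 respiratory chain genes 61 were lost, of 37 proteasome genes 32, of 28 mitochondrial ribosomal protein genes 22, and of 22 translation factors 16, none with a gained gene. Median transcript lengths were 860 nt for cytoplasmic ribosomal protein, 963 nt for respiratory chain and 1541 nt for proteasome genes. They were 1254 nt for mitochondrial ribosomal protein genes and 2226.5 nt for translation factors. Over all genes 83.9% of those of 500 to 1000 nt were lost, 72.6% at 1000 to 2000 nt and 52.01% at 2000 to 3000 nt. Whether these classes were lost beyond their length was not tested. Of smaller lists, 6 of 10 genes were lost for glycolysis, 6 of 8 for heat shock and 13 of 18 for the cytoskeleton. None of these genes was gained, which in lists this small says little beside the 14.3% over all genes.

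**Figure D3:**
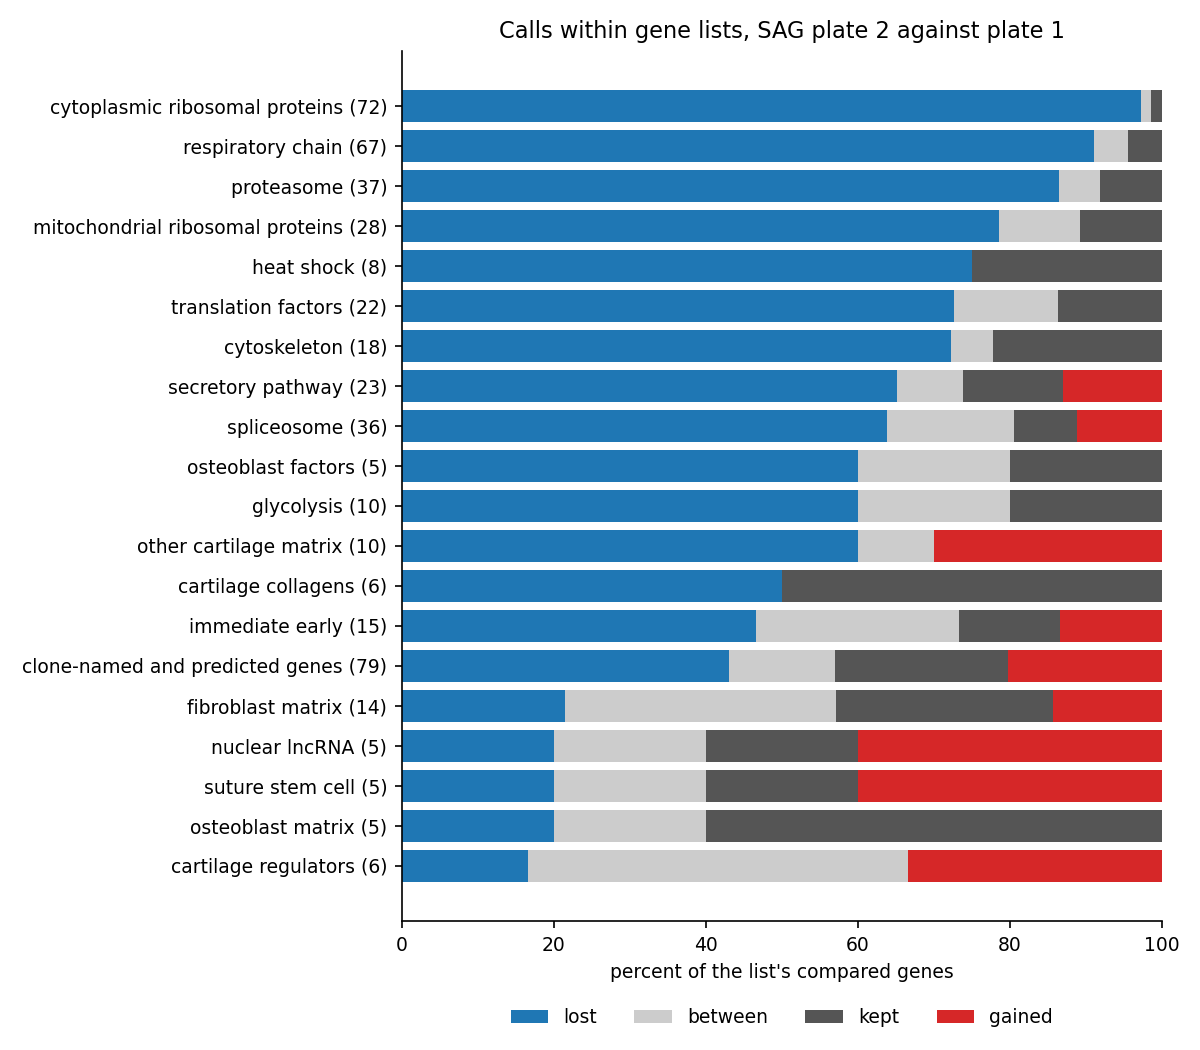
Bars show, for gene lists with at least 5 genes compared (number in brackets), the percent of those genes that were lost, between the limits, kept or gained on SAG plate 2. Cytoplasmic ribosomal proteins (70 of 72 lost) and the respiratory chain (61 of 67 lost) stand at the top, against 46.2% lost and 14.3% gained over all 3977 genes.

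The largest losses by the naming rule were of genes read in most cells of plate 1. The tetraspanin gene Cd63 had 1419 CPM on plate 1 in 92% of cells and 3 reads on plate 2 (0.545 CPM, interval 0.112 to 1.59), and its relative Cd9 had 901 CPM and no read, at least 1651-fold lower. Slc25a4, the ADP/ATP carrier of mitochondria, had 651 CPM in every cell of plate 1 and no read on plate 2, at least 1194-fold lower. Rpl14, Rpl19, Snrpb, Rcn1, Chchd2 and Ssr1 also had no read on plate 2, and the histone gene H3f3a and the ribosomal genes Rps3a1 and Rpl5 had 1 or 2 reads there. By share of cells the list was led by genes read in every cell of plate 1 and in none of plate 2, such as the proteasome subunit gene Psmb6, the cytochrome oxidase gene Cox8a and Arf5. Hspa8, the constitutive chaperone, was read in 100% of plate 1 cells and 18.2% of plate 2 cells, at 2688 and 17.6 CPM, 152-fold lower.

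A few members of the same classes went the other way, chosen here after their values were seen. Rps26 was the only ribosomal protein gene kept, at 102 and 93.5 CPM in 96% and 81.8% of cells, and Rpl4 lay between the limits at 1651 and 768 CPM. In the cytoskeleton Actb (3808 and 670 CPM), Actg1 (3983 and 104) and Vim (1471 and 45.1) were lost, but Cfl1, which encodes cofilin, had 708 and 1317 CPM in 100% and 98.2% of cells, and Pfn1 and Tubb5 were kept too. Of 23 secretory pathway genes 15 were lost, beside 46.2% over all genes, including the chaperone genes Hspa5 (1664 and 72.4 CPM) and Pdia3 (1555 and 51.6). The gained ones included a pair of high level: P4hb, which encodes the protein disulfide isomerase subunit of collagen prolyl hydroxylase, had 1631 and 12884 CPM, and Sec61a1, the translocon channel, had 566 and 3606. P4hb ran from 0 to 4230 CPM in plate 1 cells with a median of 1490, and from 0 to 36950 in plate 2 cells with a median of 11900. Among 36 spliceosome genes 23 were lost and 4 gained, where 46.2% and 14.3% were over all genes. Hnrnpk was at 1460 and 154 CPM beside Hnrnpab at 350 and 2500 and Sf3b1 at 437 and 2067.

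Immediate early genes respond to handling and growth factors within minutes. Of 15 compared 7 were lost, 2 kept and 2 gained, near the 46.2% lost and 14.3% gained over all genes. Egr1 had 803 CPM on plate 1 in 32% of cells and 11631 CPM on plate 2 in 72.7%, and Nr4a1 had 466 and 4124 CPM. Fos was lower on plate 2 at 6538 and 1822 CPM, and Btg2 (5456 and 145) and Junb (991 and 119) were lost. The summed level of the list was 19735 and 20316 CPM, which is nearly equal, although Egr1 was 14.5-fold higher and Btg2 37.7-fold lower on plate 2.

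Genes with the largest gains were nearly absent from plate 1. Tbc1d13, a gene of a GTPase-activating protein, had no read on plate 1 and 465 CPM on plate 2 in 25.5% of cells, at least 388-fold higher. 2310067B10Rik (355 CPM), Kat6a, a histone acetyltransferase gene (287 CPM), Sik1 (191 CPM) and Naf1 (163 CPM) likewise had no read on plate 1, and Midn and Notch1 had 1 read there against 327 and 320 CPM on plate 2. Mob1a, a Hippo pathway gene, went from 5.60 CPM in 24% of cells to 943 CPM in 63.6%. Most gained genes of this group were still read in a minority of plate 2 cells, with 1 cell giving 8.31% to 33% of the reads of those named in this paragraph.

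Lars2 and Mir6236 were higher on the plate with more Rn45s. Lars2, which encodes the mitochondrial leucyl-tRNA synthetase, had 35.6 CPM on plate 1 and 7505 CPM on plate 2, 211-fold higher, and was read in 84% and 100% of cells. A single cell held 44.02% of its plate 2 reads, and without it the log2 ratio was 6.87 in place of 7.68. A passing cell had 0 to 41 reads of it on plate 1 with a median of 6.5, and 166 to 28865 on plate 2 with a median of 582, so that no cell overlapped. Per 1000 reads of Rn45s it had 0.132 reads on plate 1, 0.999 on plate 2 and 0.168 to 0.302 on the other plates. Mir6236 was read in 20% and 90.9% of cells, but its reads per 1000 Rn45s reads were 0.00854 and 0.00835, and therefore close. Sex-linked genes also differed: Xist, the RNA of the inactive X chromosome, had 10.4 and 1113 CPM, and the Y-linked genes Ddx3y and Eif2s3y had 90 and 55.6 CPM on plate 1 and 10 CPM and no read on plate 2. These few genes stand beside 46.2% lost and 14.3% gained over all genes compared. Without its top cell Eif2s3y had a log2 ratio of -4.91 in place of -5.82. Whether the mice behind the plates differed in sex was not tested.

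Transcript length separated the lost from the gained genes. Taking the longest coding transcript of each gene in the mm9 annotation (GENCODE), the median length was 2131 nt for lost, 3665 nt for kept and 4723 nt for gained genes. Of the genes of 500 to 1000 nt 83.9% were lost and 1.74% gained, of those of 2000 to 3000 nt 52.01% and 8.38%, and of those over 8000 nt 8.29% and 45.9%. Across 3931 coding genes the Spearman correlation of length with the plate ratio was 0.52, and across the genes compared in PF, COR and GP it was 0.03, 0.00 and -0.02. These are descriptions across genes, which share 1 pair of libraries and are not independent replicates.

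The transcripts were then searched for short words. For all 4096 words of 6 letters a density was taken, the number of copies in the sense strand divided by transcript length. The words were ranked by how their density went with the plate ratio after the ratio had been centred within length bands. The word CCCATG ranked first with a Spearman correlation of 0.35, and the next, CCCCAT, which overlaps it by 5 letters, had 0.20. Its reverse complement CATGGG ranked 1929 with 0.00 after the same centring. The word is common: it was in 57.5% of the coding genes compared and in 52.97% of all 22611 coding genes. Since the word was picked for its relation to the plate ratio, the counts that follow describe that relation and are no test of it.

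The sequences below are those of the markers that hold the word and of other genes chosen after their values were seen. They were read from mm9 in the sense of the transcript, with capitals for the word and as many letters after it as continue into CCCATGTAC. Of a gene with several copies only 1 is shown, and for Sox9 and Hnrnpk it is the copy with the longest match. Cfl1, Hnrnpab and Sf3b1, which also departed from their class, hold the word but are not shown. The sequences are given because the same letters recur in genes of unrelated function.
Sox9 (chr11:112646709-112646738, + strand, exon 3 of 3, coding): cgcagcgcCCCATGTACacccccatcgctg
Lect1 (chr14:80045170-80045193, - strand, exon 5 of 7, coding): ggcttaagCCCATGTAtccaaaag
Col2a1 (chr15:97808314-97808343, - strand, exon 51 of 54, coding): gccccgacCCCATGcagtacatgcgggccg
Sparc (chr11:55218720-55218749, - strand, exon 5 of 10, coding): gcaacaccCCCATGTgtgtgtgccaggacc
P4hb (chr11:120422200-120422229, - strand, exon 11 of 11, 3′ UTR): gaatttgtCCCATGTgcttgctaaaatgtt
Sec61a1 (chr6:88454808-88454837, - strand, exon 12 of 12, 3′ UTR): tcaagtatCCCATGTAatttttatttaaac
Rps26 (chr10:128061644-128061673, - strand, exon 4 of 4, coding): caccaaagCCCATGTAaagaggccgttttg
Rpl4 (chr9:64025528-64025553, + strand, exon 8 of 10, coding): cctgCCCATGcacaagatgatgaaca
Thbs1 (chr2:117945632-117945661, + strand, exon 13 of 22, coding): acagtgacCCCATGTACcgctgtgagtgca
Thbs2 (chr17:14815803-14815832, - strand, exon 13 of 22, coding): ttagtgacCCCATGTACaagtgtgagtgcc
Hnrnpk (chr13:58493463-58493492, - strand, exon 18 of 18, 3′ UTR): aaattcccCCCATGTAattattgtgaacac
The longest coding transcript of Sox9 held 5 copies of the word and that of Col2a1 also 5, Lect1 held 1, and Col9a3, Col9a1, Hspa8, Actg1, Lum, Cd9 and Spp1 held none. Other lost genes named here did hold it, among them Cd63, Psmb6, Snrpb, Vim, Hspa5 and Col9a2 with 1 copy each. The kept genes Bgn, Clu and Capn6 held none. Hnrnpk is shown as an exception, lost although 8 letters were present.

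The matrix glycoprotein genes Thbs1 and Thbs2, chosen after their values were seen, are paralogs that both hold the 9 letters in exon 13. Thbs1 had 549 CPM on plate 1 and 8715 CPM on plate 2, in 56% and 65.5% of cells. Thbs2 had 1632 and 16835 CPM, in 88% and 85.5% of cells. Other gained genes of high level, also chosen after their values were seen, were Peg3 (623 and 13741 CPM) with 16 copies of the word, most of them in a repeated coding stretch, the basement membrane gene Hspg2 (43.6 and 1665) with 14, and Mmp2 (2402 and 12272) with 5.

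Holding the word went with being kept or gained. Among 1671 coding genes without it 69.8% were lost and 2.21% gained, with a median log2 ratio of -3.60, while among 2260 with at least 1 copy 28.5% were lost and 23.2% gained, with a median of -0.19. The share lost was lower and the share gained higher with more copies: 1 copy gave 40.3% lost and 12.7% gained, 2 copies 20.96% and 23.4%, and at least 3 copies 9.41% and 47.3%. Read the other way, 93.4% of gained genes, 72.0% of kept genes and 35.6% of lost genes held the word. Without adjustment for length the reverse complement went the same way less steeply, in 69.5%, 63.99% and 46.4%. In PF, COR and GP the median ratios of genes without and with the word differed by little, 0.31 and 0.20, 0.10 and 0.08, and -0.15 and -0.20.

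The order of lost genes held within each length band from 1000 nt up, but not below, where 88.9% were lost with no copy (189 genes), 68.1% with 1 (47 genes) and 71.4% with at least 2 (7 genes). Of genes of 1000 to 2000 nt, 82.99% were lost with no copy, 61.97% with 1 and 28.4% with at least 2, and 0.370%, 6.41% and 20.9% were gained. Above 6000 nt 24.5%, 15.8% and 6.52% were lost and 18.4%, 20% and 52.8% gained. Length kept a relation of its own, since among genes without the word its Spearman correlation with the ratio was 0.42 over 1671 genes.

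**Figure D4:**
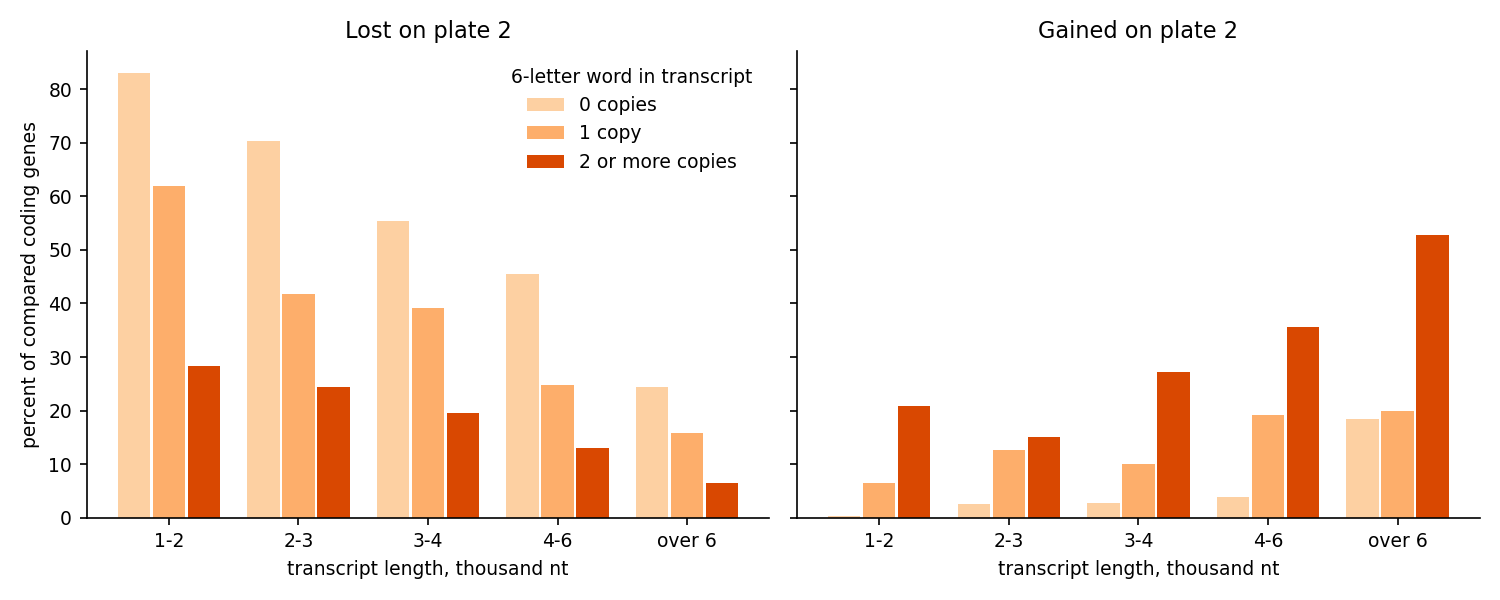
Percent of coding genes lost (left) and gained (right) on SAG plate 2 by transcript length (axis in units of 1000 nt), with bars for 0, 1, and 2 or more copies of CCCATG in the longest coding transcript. In the 1000 to 2000 nt band losses run 82.99%, 61.97% and 28.4% with rising copies, and above 6000 nt gains run 18.4%, 20% and 52.8%.

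The letters after the word went with the ratio too. Among genes with 1 copy, those followed by T had a median log2 ratio of 0.22 and 26.3% gained, while those followed by A, C or G had medians of -1.24, -1.82 and -1.66, with 10.9%, 9.05% and 5.54% gained. The word was lengthened letter by letter by the highest length-centred median, among words held by at least 20 genes. This gave CCCATGT (862 genes, 37.8% gained), CCCATGTA (167 genes, 53.9%) and CCCATGTAC (52 genes, 71.2%), where it stopped. Longer words held by fewer than 20 genes were not scored, so the stop at 9 letters does not show that further letters are without a relation. Of the 52 genes with all 9 letters 37 were gained and 2 lost, with a median log2 ratio of 2.99, and 3.34% of all coding genes hold these letters. In PF, COR and GP 15.2%, 10% and 0% of genes with the 9 letters were gained. The shares over all genes compared there were 7.24%, 2.98% and 3.19%. The counts are small, 5 of 33 genes in PF, 3 of 30 in COR and 0 of 30 in GP.

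The place of the word in the transcript went with the ratio as well. Among 1187 genes with 1 copy, 71.9% were lost where it began within 200 nt of the 5′ end and 73.3% where it began at 200 to 400 nt, with median log2 ratios of -4.48 and -3.70. At 1000 to 2000 nt 32.4% were lost with a median of -0.88, and beyond 3000 nt 25.8% with a median of -0.26. Distance from the 5′ end had a Spearman correlation of 0.28 with the ratio and distance to the 3′ end 0.13. Transcript length had 0.32 over the same genes and moved with the distance, from a median of 1639 nt in the first distance class to 5498 nt in the last, and the relation with position was not tested apart from length. Rps26 does not follow this order, with its copy at position 368 of 447 nt, and genes with a copy near the 5′ end include lost Rpl14 at position 78 and Ctsk at position 80.

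The same relation can be described cell by cell. The word was picked from the summed reads of these cells, so its values per cell are no further test, and cells of 1 plate are not replicates. Genes with the word took 39.2% to 72.5% of a cell's coding reads on plate 1 with a median of 54.8%, and 62.4% to 91.8% on plate 2 with a median of 86.7%, while medians on the other plates were 58.4% to 61.8%. Among the genes with a read in a cell, 44.98% to 55.3% held the word on plate 1 and 73.4% to 81.0% on plate 2, with no overlap between the plates. The median transcript length of the genes read was 2068 to 2926 nt in cells of plate 1 and 3417 to 4117 nt in those of plate 2, again with no overlap. Genes with the 9 letters took a median of 0.731% of coding reads in plate 1 cells and 6.15% in plate 2 cells, beside 0.490% to 0.777% on the other plates.

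**Figure D5:**
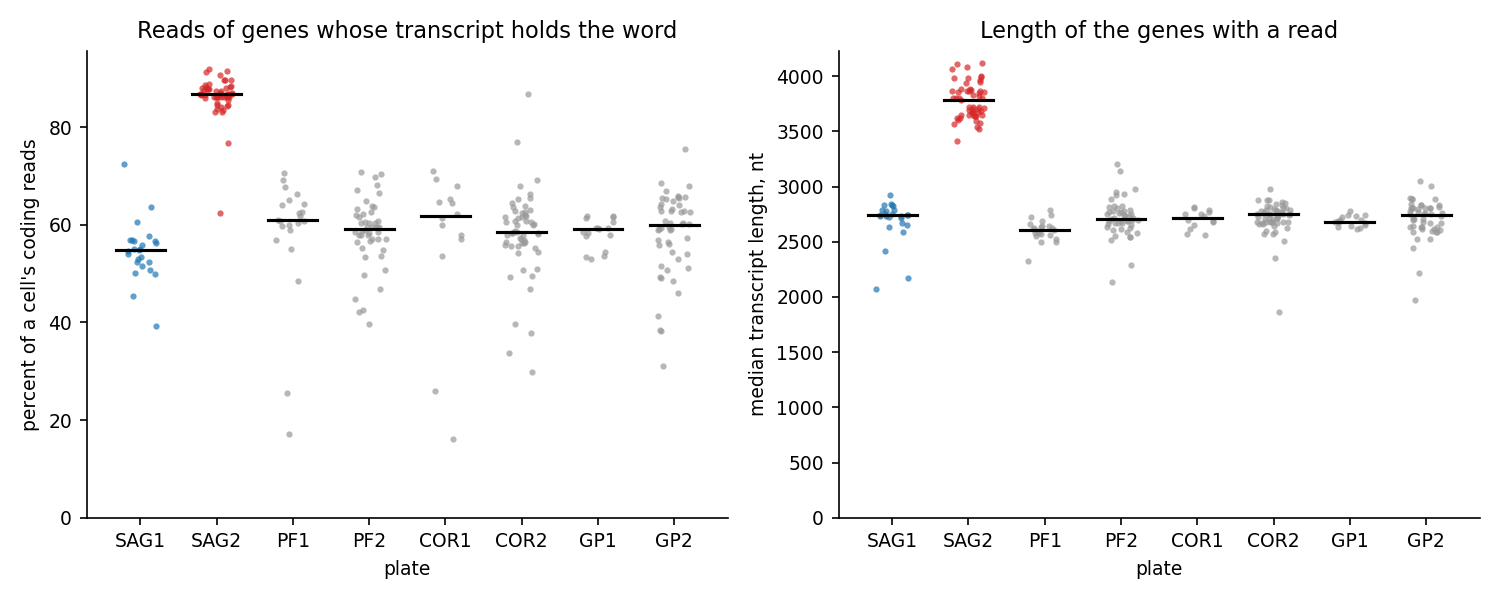
Each point is 1 cell thinned to 100000 reads other than Rn45s, grouped by plate, with lines at plate medians. Left, percent of coding reads in genes whose transcript holds CCCATG, with medians of 54.8% on SAG plate 1 and 86.7% on SAG plate 2; right, median transcript length in nt of the genes with a read, with medians of 2741.5 and 3784 nt.

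Some gene classes divided along the same line and others did not. Of 71 coding ribosomal protein genes compared, 55 lacked the word and all 55 were lost, and 14 of the 16 that held it were lost. Among the 14 fibroblast matrix genes all 3 without the word were lost and none of the 11 with it, and among the 22 coding secretory genes 11 of 12 without it and 4 of 10 with it. Heat shock genes did not divide, with 3 of 4 lost in either case, nor did glycolysis genes, of which 5 of 8 with the word and 1 of 2 without were lost. Of the 4 cartilage markers the 1 without the word, Col9a3, was the lost one. Both Y-linked genes compared, Ddx3y and Eif2s3y, lacked the word and were lost. There were exceptions in both directions: 37 gained genes lacked the word, among them Glul, which encodes glutamine synthetase (76.0 and 1815 CPM), and 48 lost genes held at least 3 copies, among them Ssr1, which was read in 80% of plate 1 cells and in none of plate 2. The annotation gives the longest transcript and not the one used by these cells. A match is a description of letters and not of a bound site. The template switch oligo given in the methods ends with the reverse complement of the 9 letters, and its part in the difference between the plates was not tested.

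The kept genes with the highest levels, by the naming rule, were Sparc, Col1a2, Col1a1, Col2a1, Fn1, the small proteoglycan gene Bgn (3276 and 5364 CPM), the cyclophilin gene Ppic (2483 and 3561), Clu (3412 and 2386, with the log2 ratio moving from -0.52 to 0.23 without its top cell), Capn6 (2314 and 2061), Scara3 (2440 and 1611), Serpine2 (1884 and 1577) and Aebp1 (1299 and 1214). Bgn was read in 92% and 92.7% of cells and Ppic in 92% and 90.9%, while Scara3 was read in 88% and 61.8%.

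Cells were alike within a plate and unlike between plates. Over the 3977 genes the median Pearson correlation of log2(CPM + 1) was 0.24 for pairs of plate 1 cells, 0.27 for pairs of plate 2 cells and 0.05 for pairs across the plates. Cells of plate 1 had medians of 0.23 to 0.25 with cells of the 6 plates of other tissues, and cells of plate 2 had 0.03 to 0.05. All 25 cells of plate 1 and all 55 of plate 2 had their most alike cell of the other 79 on their own plate. Among passing cells 26 well names occurred on both plates, and the 21 pairs of thinned cells with the same well name also had a median correlation of 0.05. No cells had identical counts. The genes compared were chosen in part by the plates, and pairs of cells share plate and preparation, so that these values are descriptions.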

How the data were processed

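Single CD51+;CD200+ cells were sorted into wells and sequenced by the Picelli method. The authors deposited 1 table of raw read counts per plate, with 24015 genes by cells; the submitters' processing notes name STAR 2.5.3a, HTSeq, Seurat 2.3.0, R 3.4.4 and mm9. All 8 tables were read, and each column was mapped to its sample by its title. Cells with fewer than 500 genes or 10000 reads were left out, Rn45s was removed, and the rest were thinned without replacement to 100000 reads. CPM was taken from reads summed per plate, and ratios were log2 with a pseudocount of 1 CPM. As each plate is 1 sample, no count model or test was run. Lost, kept and gained used 4-fold and 2-fold limits. A fold against no read used a floor of 3 reads over the plate (1.2 CPM on plate 1, 0.545 CPM on plate 2).

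Genes were named by rule: the 4 markers, the 15 lost and 15 gained genes with the largest ratios that stayed past 4-fold without their top cell, the 12 kept genes with the highest lower level, the 8 with the largest difference in share each way, 4 per list, the sort antigens and Rn45s. List members beyond these, and the genes said to be so, were chosen after their values were seen. The comparison, the members and the 41 gene lists were chosen with earlier results of these data known. Transcripts were those of the mm9 annotation, and words were counted in the longest coding one. Calls and the word scan were checked on simulated counts. Python 3.11.15, numpy 2.4.6, pandas 2.3.3, scipy 1.17.1, R 4.3.3, edgeR 4.0.16 (TMM factors) and DESeq2 1.42.0 (size factors) were used. A gene that the naming rule picked is not reported here.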

Additional observations from a re-analysis of the deposited data

How the results depend on the processing

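Over 16 alternatives, 556 of 574 values of 36 list and marker ratios kept their sign. The alternative with Rn45s in the totals used all reads of all passing cells without thinning, so that depth and cells changed with it. Counting Rn45s in the totals shifted the median log2 ratio of the genes compared from -1.63 to -4.28 and left 268 genes kept and 45 gained, with the word in 45.3% of lost and 95.5% of gained genes; it turned the sign of the other cartilage matrix genes (-1.70), the pericyte or smooth muscle markers (-0.56) and Lect1 (-0.55), and of the smaller ratios of the markers together (-2.21), Col2a1 (-2.90) and the fibroblast matrix (-2.25), suture stem cell (-1.65), immediate early (-2.41), secretory (-1.96), microRNA (-1.88) and clone-named (-2.42) lists. A floor of 200 CPM gave 490 lost and 186 kept genes and turned the median log2 ratio to 0.36. No filter on low values gave 4793 lost, 2608 kept and 2309 gained genes, with the word in 39.7% and 83.0% of the lost and gained. Gained genes numbered 893 at 2-fold and 329 at 8-fold. The word was in 38.7% of lost genes with the top cell of each gene left out, 39.01% at 2-fold and 32.98% at 8-fold. By share of cells 669 genes were lost at 20000 reads per cell, and 0 were gained without thinning. In an alternative chosen after seeing the data, the shortest coding transcript held the word in 23.98% of lost and 57.04% of gained genes. The cause of these moves was not tested. TMM and DESeq2 size factors moved the median to -1.47 and -1.51 and changed no such count by over 1.5 times. No paired analysis was possible because each plate is 1 sample and the shared well names mark no shared animal. With 1 sample a group no replicate could be left out.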

Other observations

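One cell of plate 1 carries a description that names a PF plate although its title and tissue give SAG. It was kept under its title, and leaving it out kept the counts of lost, kept and gained genes within 1.5 times. The cell of plate 1 with the fewest genes at equal depth had 861, within the 501 to 1280 of plate 2, but genes read in plate 1 cells had a median transcript length of at most 2926 nt, below every plate 2 cell.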
